A study of Mus musculus with 12 samples.

Results

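The genes described here are 9 of the 55536 genes measured in cultured mouse oligodendrocyte precursor cells (OPCs). They were chosen by symbol from the machinery of regulated cell death, by a rule that uses no measured value but was made with earlier results of these data known: the death receptor Fas, the caspases Casp1, Casp4, Casp8 and Casp12, the kinases Ripk1 and Ripk3, and the membrane effectors Mlkl and Gsdmd. All 9 were matched to 1 gene identifier each, and all 9 passed the filter on low counts that left 18995 genes for testing. Casp4 and Gsdmd passed it only through the groups given IFN-γ, since no library without it reached the cut of 0.297 CPM for these genes. The other 7 genes also reached it in at least 3 libraries without IFN-γ.

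RNA-seq was performed on OPCs that were either untreated (Ctr), treated with the EZH2 inhibitor EPZ011989 (EZH2i), treated with IFN-γ, or treated with both, with 3 libraries in each of the 4 groups. EPZ011989 was used at 1.5 μM for 4 days, with fresh inhibitor every 48 h, and IFN-γ at 100 ng/ml for the final 6 h. The cells of all groups came from brains of Sox10:Cre-RCE:loxP(EGFP) pups of postnatal days 4 to 6. In these mice the Sox10 promoter drives Cre, so that the oligodendrocyte lineage carries GFP, and the labels call the cells Sox10GFP+ OPCs. The labels' protocol gives FACS for GFP or magnetic selection for CD140a as the isolation, without saying which library had which. Brains of several pups of both sexes were pooled, and the replicates came from different litters. The labels also name EAE, an autoimmune model of demyelination, as the mouse model of every library, while the study's methods describe no immunization of the pups. A vehicle for Ctr was not stated in the sources used here.

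Fas is a receptor at the cell surface that, once bound by its ligand, recruits the adaptor FADD and caspase-8. Active caspase-8 starts apoptosis and cleaves RIPK1 and RIPK3. Where caspase-8 is not active, RIPK1 and RIPK3 can form a complex that phosphorylates MLKL, which then breaches the plasma membrane, a death termed necroptosis. In pyroptosis, inflammatory caspases cut gasdermin D, whose fragment forms pores in the membrane. Caspase-1 is activated in inflammasomes, caspase-4 (also called caspase-11 in mice) binds bacterial lipopolysaccharide, and caspase-12 lies beside them in the genome and has been linked to stress of the endoplasmic reticulum. Promoters of genes that respond to IFN-γ often carry GAS sites or ISRE sites, the latter bound by IRF factors. EZH2 is the methyltransferase that deposits H3K27me3, a repressive histone mark.

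Casp1 (chromosome 9, 5298517 to 5307265), Casp4 (5308828 to 5336783) and Casp12 (5345430 to 5373032) are neighbours on the plus strand of GRCm38. The others lie apart: Casp8 on chromosome 1 (58795374 to 58847503), Mlkl on chromosome 8 (111311797 to 111338177, minus strand), Ripk1 on chromosome 13 (34002363 to 34037147), Ripk3 on chromosome 14 (55784995 to 55788865, minus strand), Gsdmd on chromosome 15 (75862327 to 75867408) and Fas on chromosome 19 (34290666 to 34327772). The span of Ripk1 overlaps Serpinb6a on the opposite strand and the processed pseudogenes Gm17083 and Gm17084. Whether the counting used strand was not stated.

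Promoter windows, from 250 bases before to 50 after a start site, were taken from RefSeq (GRCm38.p6) and were found for 8 of the 9 genes, in 10 windows. Gsdmd was not listed. Both strands were searched for the GAS core TTCNNNGAA and the ISRE core GAAANNGAAA. The GAS core occurred in 3 of the 10 windows, from 3 of the 8 genes, and in 8.3% of all 32851 windows. The ISRE core occurred in 1 of the 10 windows and in 3.44% of all windows. The 3 windows with a match are printed because they belong to genes that rose with IFN-γ, and that of Mlkl because its count rose the most and its window held neither core. Capitals mark the matches, and the sequences run 5′ to 3′ on the strand of the gene.
Fas, chr19:34290409-34290708, plus strand: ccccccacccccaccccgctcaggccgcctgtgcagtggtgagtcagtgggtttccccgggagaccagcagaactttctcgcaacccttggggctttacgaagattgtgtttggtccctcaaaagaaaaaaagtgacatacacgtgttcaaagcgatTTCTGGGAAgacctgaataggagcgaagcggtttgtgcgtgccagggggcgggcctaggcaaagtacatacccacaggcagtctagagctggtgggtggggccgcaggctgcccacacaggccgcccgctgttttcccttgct
Ripk1, chr13:34002624-34002923, plus strand: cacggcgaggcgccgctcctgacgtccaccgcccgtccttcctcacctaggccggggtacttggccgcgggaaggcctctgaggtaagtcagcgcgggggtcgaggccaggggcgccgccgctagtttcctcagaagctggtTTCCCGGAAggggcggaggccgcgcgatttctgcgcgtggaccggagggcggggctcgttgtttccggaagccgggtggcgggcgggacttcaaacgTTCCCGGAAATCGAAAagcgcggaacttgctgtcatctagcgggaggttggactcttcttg
Casp12, chr9:5345226-5345525, plus strand: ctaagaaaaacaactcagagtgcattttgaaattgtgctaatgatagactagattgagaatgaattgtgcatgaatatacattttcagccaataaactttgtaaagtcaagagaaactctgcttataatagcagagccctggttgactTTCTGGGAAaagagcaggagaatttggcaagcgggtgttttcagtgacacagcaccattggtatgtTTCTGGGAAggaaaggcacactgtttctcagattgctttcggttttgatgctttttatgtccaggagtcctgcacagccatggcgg
Mlkl, chr8:111338156-111338455, minus strand: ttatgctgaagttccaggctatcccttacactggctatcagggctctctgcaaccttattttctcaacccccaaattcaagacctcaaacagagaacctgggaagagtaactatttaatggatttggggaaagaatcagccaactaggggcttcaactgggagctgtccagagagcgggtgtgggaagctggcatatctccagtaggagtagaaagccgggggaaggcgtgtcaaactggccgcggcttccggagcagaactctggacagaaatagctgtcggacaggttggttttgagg
The Fas window held 1 GAS core, which began 93 bases before the start site. Casp12 held 2, at 102 and 36 bases before it. Ripk1 held 2 GAS cores, at 108 and 11 bases before the start site, and 1 ISRE core at 5 bases before it, which overlapped the second GAS core. The Ripk1 window with the matches belongs to the transcript Ripk1-203, which made up 19.9% of Ripk1 TPM with IFN-γ. The other Ripk1 window, that of Ripk1-201 (63.5%), held no match. A match of these letters is no evidence of binding.

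Library totals ranged from 17403896 to 66546017 counts, with Ctr replicate 2 the shallowest, and no replicates of a group agreed within sampling noise. The libraries labelled with IFN-γ bore its mark: the response genes Irf1, Gbp2, Ciita and Socs1 all rose (edgeR, adjusted p between 2.75e-10 and 1.46e-08 against Ctr). All 8 OPC markers were detected in every group, and their summed level was 8563 to 8724 CPM in Ctr and 5639 to 7622 CPM with IFN-γ, where Pdgfra and Cspg4 fell. The 12 microglia and macrophage markers summed to 2.19 to 2.77 CPM in Ctr and 3.20 to 4.52 CPM with IFN-γ, with C1qa at 0 counts in every library. The 5 mural and fibroblast markers summed to 0.957 to 1.81 CPM in Ctr and 2.50 to 3.78 CPM with IFN-γ, where Lum rose by 3.94 on the log2 scale (edgeR adjusted p = 2.39e-04), and of the 6 neuron markers Syt1 rose by 2.03 (edgeR adjusted p = 6.15e-04). The part of these markers in the changes of the 9 genes was not tested. The 6 T cell and NK cell markers summed to at most 0.479 CPM in any library, and Cd3d, Ncr1 and Nkg7 were at 0. The 6 astrocyte markers summed to 1072 to 2649 CPM over the 12 libraries and were highest in replicate 3 of every group. In bulk RNA a change in the number of cells of a type and a change in RNA per cell cannot be told apart.

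IFN-γ raised 8 of the 9 cell death genes and left Ripk3 without a detectable change. Against Ctr, 8 of 9 passed the test in the upward direction (edgeR, adjusted p under 0.05), where 6.65% of all genes tested did. The same 8 rose in EZH2-inhibited cells, where 5.9% of all genes did. Both counts include Casp4 and Gsdmd, which had to be higher with IFN-γ to be tested at all, and without them 6 of 7 rose in either comparison. The libraries of the 2 groups did not overlap for any of these 8 genes, Casp4 and Gsdmd included, in either comparison. Of all genes, 13.5% and 11.8% were higher without overlap. The median log2 fold change of all 9 genes, with Casp4 and Gsdmd, was 3.08 against Ctr and 3.17 against EZH2i. That of all genes tested lay at 0.00 in both. Values below are TMM-normalized CPM, the reads of a gene scaled to a common library size, given for replicates 1, 2 and 3.

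**Figure D1:**
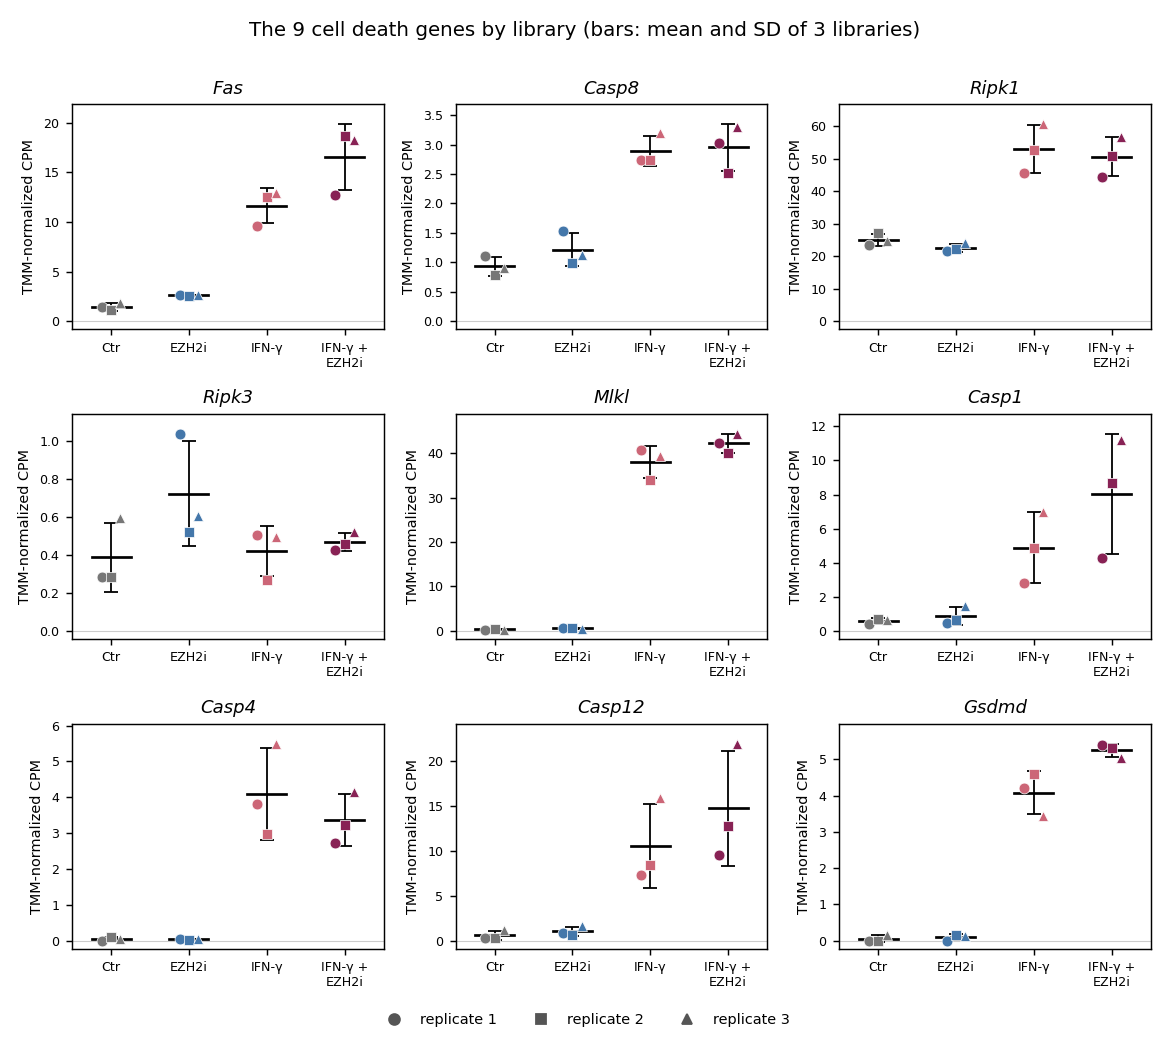
TMM-normalized CPM (vertical axis, linear, a scale for each gene) of the 9 cell death genes in the 4 groups (horizontal axis), with 1 point for each library and bars for the mean and SD of 3 libraries. In 8 panels all 6 libraries with IFN-γ lie above all 6 libraries without it, from a mean of 0.317 to 38.0 CPM for Mlkl and of 25.1 to 53.1 CPM for Ripk1, whereas Ripk3 overlaps between IFN-γ and Ctr and stays at or under 1.04 CPM in every library.

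Fas, the receptor that starts the pathway, stood at 1.42, 1.07 and 1.87 CPM in Ctr, and at 9.58, 12.5 and 12.9 CPM with IFN-γ. Its log2 fold change was 2.97 ± 0.24 (SE, n = 3 per group, edgeR adjusted p = 4.21e-06). In EZH2i it stood at 2.65, 2.55 and 2.58 CPM, and with both agents at 12.7, 18.7 and 18.3 CPM, a log2 fold change of 2.68 ± 0.23 for IFN-γ in EZH2-inhibited cells (edgeR adjusted p = 7.77e-06). Fas was thus low but counted in every library without IFN-γ, and every library with IFN-γ lay above all of these. The protein-coding transcript Fas-201 made up 90.3% of Fas TPM with IFN-γ and 73.0% in Ctr, where only 19 to 110 reads were counted per library.

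Casp8, the initiator caspase below Fas, had 1.10, 0.79 and 0.899 CPM in Ctr. With IFN-γ it had 2.75, 2.74 and 3.19 CPM, and its log2 fold change was 1.63 ± 0.25 (edgeR adjusted p = 0.00112). In EZH2i its levels were 1.54, 0.986 and 1.12 CPM, against 3.03, 2.52 and 3.30 CPM with both agents (log2 fold change 1.29 ± 0.25, edgeR adjusted p = 0.00523). All Casp8 TPM fell on protein-coding transcripts, and no single one of Casp8-201, Casp8-202 and Casp8-203 took more than 55.9% of its TPM in any group.

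Ripk1, the kinase that can turn the receptor signal toward survival, apoptosis or necroptosis, was the most abundant of the 9 genes without IFN-γ. It was counted at 23.4, 27.1 and 24.8 CPM in Ctr and at 45.7, 52.8 and 60.7 CPM with IFN-γ. Its change was the smallest of the 8 that rose, with a log2 fold change of 1.08 ± 0.14 (edgeR adjusted p = 2.27e-04). In EZH2i the levels were 21.6, 22.2 and 23.9 CPM, and with both agents 44.5, 50.8 and 56.6 CPM (log2 fold change 1.16 ± 0.14, edgeR adjusted p = 1.25e-04). The share of Ripk1-201 was between 61.2% and 66.2% in the 4 groups. Of the genes that overlap Ripk1, Serpinb6a had a mean of 250.0 counts in Ctr and 304.7 with IFN-γ, Gm17083 had 39.0 and 131.7, and Gm17084 had 24.0 and 79.0. Their part in the change of Ripk1 was not tested.

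Ripk3 and Mlkl, the kinase and the effector of necroptosis, gave unlike results. Ripk3 was counted at 0.284, 0.282 and 0.594 CPM in Ctr and at 0.503, 0.266 and 0.494 CPM with IFN-γ. The groups overlapped, and the log2 fold change of 0.05 (95% interval -0.89 to 1.00, edgeR adjusted p = 0.973) leaves room for a change of nearly 1 log2 unit in either direction at 5 to 35 reads per library. In EZH2i it had 1.04, 0.521 and 0.607 CPM, and with both agents 0.427, 0.456 and 0.522 CPM, which gave a log2 fold change of -0.60 (95% interval -1.51 to 0.32, edgeR adjusted p = 0.585). The TPM of Ripk3 was spread over 6 transcripts that each held at least 10% in some group, and none held over 39.6% in any.

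Mlkl had 0.284, 0.395 and 0.271 CPM in Ctr, which were 8, 7 and 16 reads. With IFN-γ it had 40.8, 33.9 and 39.3 CPM, or 1217, 1273 and 2547 reads. Its log2 fold change of 6.96 ± 0.22 was the largest of the 9 genes (edgeR adjusted p = 8.62e-10). With EZH2i the levels were 0.679, 0.575 and 0.41 CPM, and with both agents 42.2, 40.1 and 44.3 CPM (log2 fold change 6.29 ± 0.21, edgeR adjusted p = 1.06e-09). The means differed by 119.9 times between IFN-γ and Ctr, and the SD within the IFN-γ group was 3.62 CPM. Mlkl-202, 1 of 3 protein-coding transcripts, took 88.6% of Mlkl TPM with IFN-γ, and Mlkl-201 took 9.82%.

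The inflammatory caspases were all low in Ctr and all rose. Casp1 had 0.39, 0.677 and 0.662 CPM in Ctr and 2.81, 4.87 and 6.96 CPM with IFN-γ (log2 fold change 3.08 ± 0.52, edgeR adjusted p = 0.00232). It had 0.465, 0.658 and 1.47 CPM in EZH2i and 4.27, 8.66 and 11.2 CPM with both agents (log2 fold change 3.17 ± 0.50, edgeR adjusted p = 0.00137). Replicate 1 was the lowest and replicate 3 the highest in both groups with IFN-γ, and the spread within these groups was therefore wide. EZH2i replicate 3 set part of the second value, which was 3.83 without it.

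Casp4 was close to absent without IFN-γ, with 0, 2 and 2 reads in Ctr and 1, 1 and 4 reads in EZH2i. IFN-γ brought it to 3.82, 2.98 and 5.49 CPM, from 114, 112 and 356 reads, and both agents to 2.73, 3.22 and 4.15 CPM. Pooled over libraries, 582 reads with IFN-γ stood against 4 in Ctr, a depth-adjusted ratio of 111.6 with an exact 95% interval of 43.4 to 411.1. The pooled ratio was 68.1 (30.9 to 186.8) between both agents and EZH2i, from 337 and 6 reads. These intervals cover counting error only. The edgeR adjusted p was 7.43e-06 against Ctr and 8.01e-06 against EZH2i. Casp4 passed the filter only through the libraries with IFN-γ, so these p-values add no separate support for a rise. The fitted log2 fold change against Ctr was 6.60, and it was 7.33 without Ctr replicate 2. Casp4-201 held 67.1% of Casp4 TPM with IFN-γ and 75.9% with both agents.

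Casp12 had 0.319, 0.282 and 1.19 CPM in Ctr and 7.34, 8.42 and 15.9 CPM with IFN-γ (log2 fold change 3.98 ± 0.58, edgeR adjusted p = 7.34e-04). It had 0.858, 0.658 and 1.64 CPM in EZH2i and 9.53, 12.7 and 21.9 CPM with both agents (log2 fold change 3.77 ± 0.56, edgeR adjusted p = 8.32e-04). Replicate 3 was the highest in each of the 4 groups. Without Ctr replicate 3 the change against Ctr was 5.11. Transcripts annotated as protein-coding made up 52.4% of Casp12 TPM with IFN-γ, and the rest fell on retained-intron and nonsense-mediated decay transcripts.

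In both groups with IFN-γ, Casp1, Casp12, the summed astrocyte markers and the library totals all increased in the order of replicates 1, 2 and 3. In Ctr, Casp1 was highest in replicate 2 and the astrocyte markers in replicate 3. The astrocyte markers summed to 1072, 1241 and 2321 CPM in replicates 1, 2 and 3 with IFN-γ, and to 1488, 1506 and 2649 CPM with both agents. Replicates 1 and 2 with both agents thus differed little in these markers, while Casp1 stood at 4.27 and 8.66 CPM. The part of the astrocyte markers in the levels of Casp1 and Casp12 was not tested. Between IFN-γ and Ctr none of the 6 astrocyte markers passed the test with group as the only term, and the summed levels of the groups overlapped (1106 to 2091 CPM in Ctr). With the replicate number as a block, Gfap was called higher in that comparison (0.62, edgeR adjusted p = 0.00310). It was also called higher with the block in IFN-γ with EZH2i versus EZH2i (0.46, edgeR adjusted p = 0.0184).

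Gsdmd, the pore-forming effector of pyroptosis, was counted at 0, 0 and 10 reads in Ctr and at 0, 6 and 8 reads in EZH2i. With IFN-γ it reached 4.22, 4.61 and 3.42 CPM, from 126, 173 and 222 reads, and with both agents 5.38, 5.32 and 5.04 CPM. The pooled ratio was 40.0 against Ctr (exact 95% interval 21.6 to 83.9) and 43.6 against EZH2i (25.8 to 80.4). These intervals cover counting error only and not the spread between replicates. The adjusted p from edgeR was 2.68e-04 and 1.71e-04. Gsdmd, like Casp4, passed the filter only through the libraries with IFN-γ, so these p-values add no separate support for a rise. The fitted log2 fold change against Ctr, 5.54 (95% interval 3.98 to 7.10), was 10.2 without Ctr replicate 3, which held all Ctr reads of the gene. Protein-coding transcripts took 51.8% of Gsdmd TPM with IFN-γ, and 3 retained-intron transcripts the rest.

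**Figure D2:**
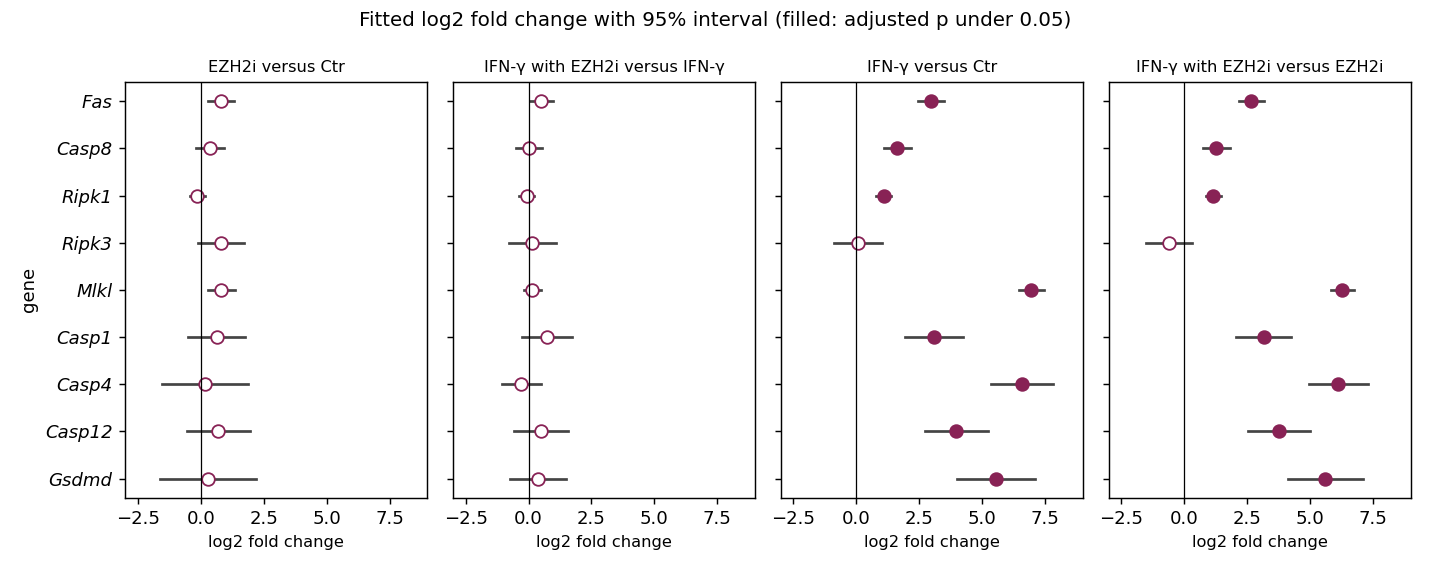
Fitted log2 fold change (horizontal axis) with its 95% interval for each of the 9 genes (vertical axis) in 4 comparisons, with filled points for an edgeR adjusted p under 0.05. The 8 filled points in each of the 2 IFN-γ comparisons lie between 1.08 and 6.96, and no point is filled in the 2 EZH2i comparisons.

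The order of the levels, compared per length as TPM, changed with IFN-γ. In Ctr, Ripk1 led with 4.82 ± 1.05 TPM (SD, n = 3), followed by Fas with 0.896 ± 0.318 TPM and Casp8 with 0.365 ± 0.0466 TPM. The ranges of these 3 genes did not overlap, whereas each neighbour in the order Casp8, Ripk3, Casp1, Casp12, Mlkl, Casp4 and Gsdmd overlapped the next. The last of them, Gsdmd, had 0.0463 TPM in Ctr. With IFN-γ, Mlkl stood first with 16.4 ± 0.325 TPM, above Ripk1 with 11.6 ± 1.88 TPM and Fas with 7.19 ± 1.42 TPM, again without overlap. Fas, Casp12 (6.27 TPM), Gsdmd (3.65 TPM), Casp4 (3.13 TPM) and Casp1 (2.88 TPM) followed with ranges that each overlapped the next, and Casp8 (1.28 TPM) and Ripk3 (0.349 TPM) came last, each below the range of the one before.

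In EZH2i the first 2 places were those of Ctr, with Ripk1 at 5.23 ± 0.433 TPM and Fas at 1.69 ± 0.0663 TPM. With both agents Mlkl led again at 16.8 ± 0.576 TPM, and the ranges of Ripk1 (9.97 TPM) and Fas (9.26 TPM) overlapped. Ripk3 was last with 0.453 TPM. In either group with IFN-γ the kinase Ripk3 was thus the lowest of the 9 genes, and its substrate Mlkl the highest.

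**Figure D3:**
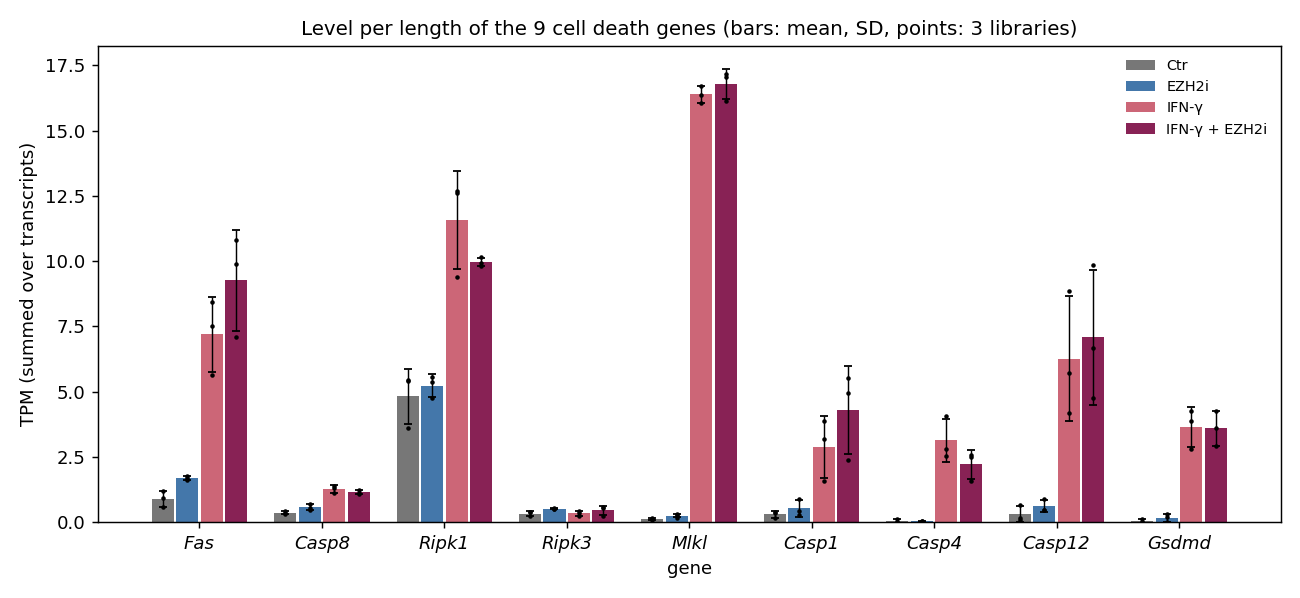
TPM summed over the transcripts of each gene (vertical axis, linear from 0) for the 9 genes (horizontal axis) in the 4 groups, with bars for the mean, whiskers for the SD and points for the 3 libraries. Mlkl rises from a mean of 0.119 TPM in Ctr to 16.4 TPM with IFN-γ, and Ripk3 stays at or under 0.586 TPM in every library.

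In the fit with group as its only term, EZH2i alone moved none of the 9 genes past the threshold. In EZH2i versus Ctr, 0 of 9 were called by edgeR and 0 by DESeq2, 2 had an unadjusted p under 0.05, and 0.405% of all genes were called higher. Fas was at 2.55 to 2.65 CPM with EZH2i and at 1.07 to 1.87 CPM in Ctr, a log2 fold change of 0.80 ± 0.23 (95% interval 0.29 to 1.31, edgeR adjusted p = 0.257). Mlkl was at 0.41 to 0.679 CPM with EZH2i and at 0.271 to 0.395 CPM in Ctr, a log2 fold change of 0.82 ± 0.24 (edgeR adjusted p = 0.350). Fas and Mlkl were the 2 genes whose libraries did not overlap, where 7.37% of all genes were higher without overlap.

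The other 7 genes overlapped between EZH2i and Ctr. Their log2 fold changes ran from -0.15 for Ripk1 (95% interval -0.45 to 0.15) to 0.81 for Ripk3 (-0.12 to 1.73). For Casp4 (-1.53 to 1.89) and Gsdmd (-1.62 to 2.19) the intervals were wide, since both groups held between 0 and 10 reads per library. Marker sums also differed between EZH2i and Ctr without overlap, though none of these markers was called. The 6 neuron markers summed to 16.5 to 20.6 CPM in Ctr and to 31.7 to 52.2 CPM in EZH2i. The 6 mature oligodendrocyte markers summed to 1471 to 1839 CPM in Ctr and to 807.9 to 1287 CPM in EZH2i, the OPC markers to 7192 to 7682 CPM in EZH2i, and the 5 mural and fibroblast markers to 0.957 to 1.81 CPM in Ctr and 1.91 to 2.72 CPM in EZH2i. Their part in the levels of Fas and Mlkl was not tested.

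In cells given IFN-γ, adding EZH2i also moved none of the 9 past the threshold. In IFN-γ with EZH2i versus IFN-γ, edgeR and DESeq2 called 0 of 9, 1 had an unadjusted p under 0.05, and 0.347% of all genes were called higher. That 1 gene was Fas, with 12.7 to 18.7 CPM against 9.58 to 12.9 CPM and a log2 fold change of 0.51 ± 0.21 (95% interval 0.04 to 0.98, edgeR adjusted p = 0.713). Casp1 was higher with both agents in 3 of 3 pairs of the same replicate number, by 0.72 ± 0.46 on the log2 scale (edgeR adjusted p = 0.954), and its groups overlapped. Casp12 was also higher in 3 of 3 pairs (0.48 ± 0.49, edgeR adjusted p = 0.999). With the replicate number as a block, Casp1 changed by 0.71 ± 0.18 (edgeR adjusted p = 0.0525). Fas changed by 0.50 ± 0.15 (0.102) and Casp12 by 0.49 ± 0.16 (0.143) in that fit, whereas Casp4 (-0.26) and Ripk1 (-0.07) were lower. The unadjusted p of Casp1, Fas and Casp12 was under 0.05 with the block, and none of the 9 was called. The neuron markers summed to 17.7 to 31.5 CPM with IFN-γ and 34.1 to 58.2 CPM with both agents. The mature oligodendrocyte markers summed to 1393 to 1611 CPM with IFN-γ and 781.2 to 1272 CPM with both agents. Of the 6 astrocyte markers, whose sums overlapped, the block called Gfap (1.05, edgeR adjusted p = 5.78e-04) and Aqp4 (0.59, 0.0222) higher. The part of these markers in the shifts of Casp1, Fas and Casp12 was not tested.

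Gsdmd was the 1 gene whose libraries did not overlap, at 5.04 to 5.38 CPM with both agents and 3.42 to 4.61 CPM with IFN-γ, where 6.08% of all genes were higher without overlap. Its log2 fold change was 0.36 (95% interval -0.75 to 1.48). The narrowest intervals were those of Ripk1 (-0.36 to 0.23) and Mlkl (-0.19 to 0.49). For these 2 genes, as for Fas, a change of 1 log2 unit lies outside the interval.

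The effect of IFN-γ was not shown to differ with the inhibitor for any of the 9. The interaction called 0 of 9 genes in edgeR and in DESeq2, with 1 at an unadjusted p under 0.05, and 0.0% of all genes. That gene was Mlkl, whose response to IFN-γ was 0.67 lower on the log2 scale with EZH2i (interaction -0.67 ± 0.29, edgeR adjusted p = 1.00). With IFN-γ its levels overlapped between cultures with and without EZH2i, and without IFN-γ it stood at 0.555 ± 0.136 CPM in EZH2i and 0.317 ± 0.0682 CPM in Ctr (SD, n = 3). For Fas the interaction was -0.29 (95% interval -0.98 to 0.40), for Ripk1 0.08 (-0.34 to 0.50) and for Gsdmd 0.07 (-2.38 to 2.53).

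The other genes of these pathways were taken from 7 lists with 77 genes, of which 53 passed the filter. In IFN-γ versus Ctr, 16 of the 53 rose and 0 fell, against 6.65% of all genes that rose, and the median log2 fold change of the 53 was 0.07. In IFN-γ with EZH2i versus EZH2i, 14 rose and 0 fell in the fit with group as its only term. Of all genes 5.9% rose, and the median of the 53 was 0.20. Of these 14 calls, those of Birc3, Cyld and Daxx were lost in 13, 8 and 4 of the alternatives. Their edgeR adjusted p then reached 0.372, 0.132 and 0.118, and the other calls held. In that comparison the replicate block called Ppm1b (-0.29, edgeR adjusted p = 0.0242) and Hrk (-0.73, 0.0349) lower. It also called the pro-survival gene Bcl2l1 higher (0.59, 0.0188). Tnfsf10, Birc3, Zbp1 and Nlrp6 passed the filter only through the libraries with IFN-γ, and of the other 49 genes 12 and 11 rose. By list, the rises against Ctr came from 8 of 15 death receptor genes, 2 of 5 other caspases, 2 of 6 necroptosis genes, 1 of 7 inflammasome and gasdermin genes and 3 of 10 pro-death BCL2 genes. The first of these counts includes Tnfsf10 and Birc3, the necroptosis count includes Zbp1, and the inflammasome gene was Nlrp6. None of the 4 pro-survival BCL2 genes and none of the 6 apoptosome and mitochondrial factors was called against Ctr.

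**Figure D4:**
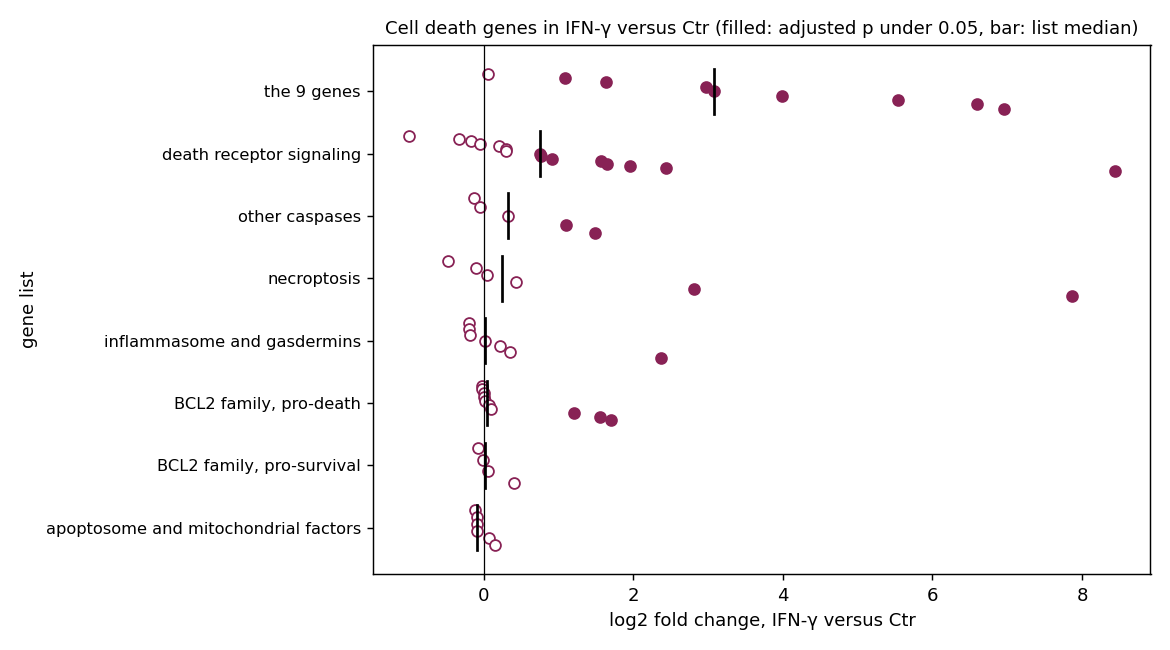
Fitted log2 fold change in IFN-γ versus Ctr (horizontal axis) of each tested gene in the 9 genes and the 7 further lists (vertical axis), with filled points for an edgeR adjusted p under 0.05 and a bar for the list median. The medians are 3.08 for the 9 genes and 0.75 for death receptor signaling, and the apoptosome list lies around -0.09 with no filled point.

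Among the death receptor genes, the ligand Tnfsf10 (TRAIL) was counted at 2, 0 and 0 reads in Ctr and stood at 7.34, 6.47 and 10.0 CPM with IFN-γ (edgeR adjusted p = 3.69e-06). Tnfsf10 and Birc3 passed the filter only through the libraries with IFN-γ, so their p-values add no separate support for a rise. The receptor Tnfrsf1a, which binds TNF, rose from a mean of 51.4 to 161.9 CPM, and the phosphatase Ptpn13, known to bind Fas, from 56.5 to 218.5 CPM. The inhibitor of apoptosis gene Birc3 was called at under 1 CPM in every library of both groups, and its call was lost with length-scaled TPM (adjusted p = 0.0886). Cflar, which encodes the caspase-8 inhibitor c-FLIP and was picked after its values were seen, rose by 1.57 ± 0.13 on the log2 scale (edgeR adjusted p = 4.74e-06), close to the 1.63 of Casp8. The adaptor Fadd did not pass the test (log2 fold change -0.33, edgeR adjusted p = 0.351). The ligands Fasl and Tnf were too low to be tested, with at most 10 and 3 reads in a library.

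The 2 necroptosis genes that rose were sensors of nucleic acid. Zbp1, which can engage RIPK3, had 1, 0 and 4 reads in Ctr and 14.6, 10.8 and 9.13 CPM with IFN-γ (edgeR adjusted p = 1.63e-05). Zbp1 passed the filter only through the libraries with IFN-γ, so its p-value adds no separate support for a rise. The receptor of double-stranded RNA Tlr3 rose from a mean of 6.23 to 44.1 CPM. Of the other caspases, Casp6 was called with an adjusted p of 0.0370 (edgeR).

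Most inflammasome genes were hardly counted in these cultures. Of 23 inflammasome and gasdermin genes, 16 did not pass the filter, among them Nlrp3 with at most 7 reads, Aim2 with at most 10 reads and Il1b with at most 1 read in a library. Nlrp6 was called (edgeR adjusted p = 0.0197) at 0.37 to 0.905 CPM, after passing the filter only through the libraries with IFN-γ. The adaptor Pycard (ASC) was at 1.75 to 2.71 CPM in Ctr and 2.61 to 3.55 CPM with IFN-γ (edgeR adjusted p = 0.661). Gsdme, another gasdermin, was at 21.2 to 31.5 CPM in Ctr and was not called (log2 fold change -0.18, edgeR adjusted p = 0.696).

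In the BCL2 family, Bcl2l11 (BIM) rose by 1.70 ± 0.16 and Bid, which links caspase-8 to mitochondria, by 1.55 ± 0.19 on the log2 scale (edgeR adjusted p = 1.46e-05 and 1.63e-04). Bmf was called with an adjusted p of 0.0475 (edgeR), but not with length-scaled TPM (0.279). The calls of Bmf, Casp6 and Nlrp6 did not hold with fewer Ctr libraries. They were lost whichever 1 of the 3 Ctr libraries was left out, with adjusted p up to 0.161, 0.133 and 0.0778. They were also lost without IFN-γ replicate 1 (0.184, 0.133 and 0.0656) or replicate 2 (0.1035, 0.0903 and 0.0700).

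EZH2i called none of the 53 pathway genes in edgeR, either without IFN-γ or with it, and 4 had an unadjusted p under 0.05 in each comparison. With IFN-γ present, where replicate numbers paired the libraries, a replicate block called 3 of the 53 higher with EZH2i (edgeR), the death receptor gene Tnfrsf10b, Ptpn13 and the BH3-only gene Pmaip1 (NOXA), while 3.11% of all genes were called higher in that fit. Pmaip1 was at 16.6 to 20.3 CPM with both agents and 5.17 to 8.15 CPM with IFN-γ, and DESeq2 called it as the only pathway gene. None of the 9 cell death genes was called with the block in this comparison. Without IFN-γ, Tnfrsf10b and Pmaip1 changed by 0.75 ± 0.20 and 1.15 ± 0.31 in EZH2i versus Ctr (edgeR adjusted p = 0.201 for each). Their interactions were -0.04 and 0.24 and were not called.

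The genes most like each of the 9 in pattern were sought among 14673 genes of at least 1 CPM, by the root-mean-square difference of centred group means of log2 CPM over the 4 groups. This is a description over 4 points and was not tested. Nearest to Fas were Crhr1 (0.062) and Dennd3 (0.074), to Casp8 Gna13 (0.040) and Sgms2 (0.045), and to Ripk1 Etohd2 (0.023) and Ifnar2 (0.028). Casp4 was nearest to Olfr1396 (0.040) and Ifit3b (0.070), and Casp12 to Slc14a1 (0.062) and Tcerg1l (0.085). Zfp133-ps (0.064) was near Ripk3. The nearest genes were farther off for Casp1 (Osmr, 0.14, and Necab1, 0.15), Mlkl (Oas1b, 0.16, and Vdr, 0.16) and Gsdmd (Calhm6, 0.12, and Clec2d, 0.18).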

How the data were processed

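RNA of 12 libraries of cultured mouse OPCs was sequenced. The authors trimmed the reads and quantified transcripts with Salmon 0.8.2. The deposited values are estimated counts and TPM per transcript, with GRCm38 (mm10), STAR and DESeq2 also listed in the submitters' processing notes. The strand setting of the counting was not given in the sources used here. The authors also deposited 2 tables of comparisons, with log2 fold changes, p-values and mean normalized counts, which were not used.

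Here the transcripts of a gene were added up to give its counts and TPM, and counts were rounded to whole numbers. Totals ran from 17403896 to 66546017 counts per library. Genes were filtered with filterByExpr, normalized by TMM and tested with the quasi-likelihood test of edgeR 4.0.16 (limma 3.58.1, R 4.3.3). All 12 libraries entered 1 fit with group as the only term, and p-values were adjusted by Benjamini-Hochberg over 18995 genes, with a threshold of 0.05. Groups came from the labels. The 4 pairwise comparisons share groups. Intervals are at 95%, and those on pooled counts cover counting error only. The code was tested on simulated counts. DESeq2 1.42.0, other normalizations and filters, TPM, the replicate number as a block, and leaving out each library were run as alternatives.

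The 9 genes and all lists were chosen with earlier results of these data known. Named genes were the 9, up to 4 called genes of each list by size of change, the 2 most alike in pattern, and transcripts of at least 10% of TPM. Fadd, Pycard, Gsdme and genes too low to test were named outside this rule, after their values were seen. Some genes the rule names are not reported here. Deviations from the group means of same-numbered libraries correlated at 0.496 to 0.621 between EZH2i and both agents and at 0.493 to 0.642 between IFN-γ and both agents, so that replicate numbers, which come from the labels, were taken to pair the libraries in these comparisons. With Ctr, numbers 1 and 3 correlated at 0.441 and 0.495 with EZH2i and at 0.490 and 0.544 with IFN-γ, but number 2, whose Ctr library was the shallowest, at 0.0467 and 0.0854. Every pair had to exceed 0.1, so the numbers were not taken as pairs there.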

Additional observations from a re-analysis of the deposited data

How the results depend on the processing

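Of 864 values of the 9 genes recomputed under the alternatives, 822 kept their direction and their side of the threshold, and the 41 that changed direction were all of genes not called. All 8 calls in each IFN-γ comparison held under every alternative that could fit the gene. With at least 10 counts required in every library, Casp4, Casp12, Mlkl, Ripk3 and Gsdmd could not be fitted, and 4 genes were called in each (Casp1, Casp8, Ripk1 and Fas). Gsdmd changed by 4.58 in IFN-γ with EZH2i versus EZH2i with length-scaled TPM. A few reads limit Casp4, Gsdmd and Ripk3.

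With a replicate block, 1 of the 9 genes was called in EZH2i versus Ctr (Fas, 0.77, edgeR adjusted p = 0.0455), where the numbers are not known to pair the libraries. The block changed no other call of the 9 genes. Of the 53 other pathway genes, EZH2i versus Ctr had 2 calls with DESeq2 and 3 with the block (Tnfrsf10b, Hrk and Pmaip1). IFN-γ with EZH2i versus IFN-γ had 1 with DESeq2, 3 with the block, and 0 to 1 when single libraries were left out. Over the alternatives, calls ran from 12 to 19 in IFN-γ versus Ctr and from 11 to 21 in IFN-γ with EZH2i versus EZH2i. Over all genes, the block raised the calls from 77 to 771 in EZH2i versus Ctr, from 1663 to 4032 in IFN-γ versus Ctr, from 1533 to 3661 in IFN-γ with EZH2i versus EZH2i, and from 67 to 748 in IFN-γ with EZH2i versus IFN-γ. EZH2i versus Ctr had 308 calls with DESeq2, 121 without a filter, 48 with length-scaled TPM, 33 with its 6 libraries alone and 29 with at least 10 counts. IFN-γ with EZH2i versus IFN-γ had 263 with DESeq2, 30 with length-scaled TPM, 11 with at least 10 counts and 7 with its 6 libraries alone. The cause was not tested.

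Changes of direction, all in values that were not called, came from leaving out single libraries or from length-scaled TPM. In EZH2i versus Ctr, leaving out libraries gave -0.0296 to 0.905 for Casp1, -0.30 to 0.92 for Casp4 and -0.16 to 4.98 for Gsdmd, and TPM gave -0.40 for Casp4. In IFN-γ versus Ctr, Ripk3 ranged from -0.14 to 0.57, with -0.16 by TPM, and in IFN-γ with EZH2i versus EZH2i it was 0.0024 by TPM. In IFN-γ with EZH2i versus IFN-γ, the ranges were -0.0644 to 0.128 for Casp8 (-0.0338 by TPM), -0.166 to 0.0392 for Ripk1 and -0.0827 to 0.304 for Ripk3. For the interaction they were -0.24 to 0.75 for Casp1, -1.21 to 0.0191 for Casp4 (0.027 by TPM), -1.34 to 0.30 for Casp12, -0.017 to 0.189 for Ripk1 and -4.62 to 0.53 for Gsdmd (-1.11 by TPM), and Ripk3 gave 0.17 by TPM. The cause was not tested.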
